A study of Mus musculus with 16 samples.

Results

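The integrin and laminin genes of reprogramming mouse fibroblasts are described here. They were taken by symbol, with earlier results of these data known. The rule was every gene of the deposited expression table whose symbol begins with *Itga*, *Itgb*, *Lama*, *Lamb* or *Lamc* and ends in the subunit's number or letters. This rule took 39 of 18990 genes, of which 24 encode integrin subunits (16 alpha and 8 beta) and 11 encode laminin chains (5 alpha, 3 beta and 3 gamma). The remaining 4, *Itgbl1*, *Itgb1bp1*, *Itgb1bp2* and *Itgb3bp*, match by symbol but encode no subunit. They are described apart in the text, but the counts and medians of members include them. *Itgam* and *Itgax* were not analysed here.

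The cells were primary wild-type BL6 mouse embryonic fibroblasts (MEFs) carrying the doxycycline-inducible tet-STEMCCA lentivirus with Oct4, Sox2, Klf4 and c-Myc (OSKM) and a second lentivirus with rtTA, the protein that switches the cassette on when doxycycline is present. They were transfected with 40 nM of pooled siRNAs, either non-targeting (nt control) or against *Wdr5*, *Brca1* or *Bard1* (siWdr5, siBrca1 and siBard1), replated on gelatin and given doxycycline. RNA was collected after 3 and 6 days of reprogramming, with 2 libraries from independent experiments in each of the 8 groups, and ribosomal RNA was depleted before sequencing. All groups, the nt control included, carried the OSKM cassette and grew in medium with 2 µg/mL doxycycline, 3 µM chiron (a GSK3 inhibitor), 0.25 µM Alk5i (an inhibitor of the TGFβ receptor), 50 µg/mL ascorbic acid and LIF. Not every cell of such a culture reprograms, and in these bulk libraries fewer cells of a type and less RNA per cell cannot be told apart.

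Integrins are receptors in the plasma membrane, each a pair of an alpha and a beta subunit, that bind proteins of the extracellular matrix or of neighbouring cells on the outside and link to actin through talin, kindlin and vinculin on the inside. The alpha subunit largely sets the ligand, so alphas are grouped by whether they bind the RGD sequence of fibronectin and vitronectin, collagen, laminin, or ligands of white blood cells. Laminins are cross-shaped matrix proteins built from an alpha, a beta and a gamma chain, and they lay the foundation of basement membranes, the sheets on which epithelial cells rest. Fibroblasts hold mainly to fibronectin and collagen, and their turn towards an epithelial state, the mesenchymal-to-epithelial transition, is an early step of reprogramming.

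The libraries held 11169738 to 26832534 reads. CPM are the reads of a gene scaled to a common library total. Taken as the floor, 3 reads of a gene came to 0.115 to 0.26 CPM without the small prior count of the deposited values. The CPM given below include that prior, so they cannot be set against this floor directly. With the prior, a library without a read of *Itgal* stood at 0.136 CPM. The siRNA targets were lower in their own knockdowns at day 3, with log2-fold changes of -1.31 for *Wdr5* in siWdr5, -1.57 for *Brca1* in siBrca1 and -0.62 for *Bard1* in siBard1. The other targets were lower as well, with -0.86 for *Brca1* and -1.03 for *Bard1* in siWdr5, -0.87 for *Wdr5* and -1.38 for *Bard1* in siBrca1, and -0.48 for *Wdr5* in siBard1, where *Brca1* (-0.38) was not called. At day 6 the ranges of each target in its own knockdown and in the nt control lay close together or overlapped (*Wdr5* 85.5 and 72.4 against 91.8 and 98.1 CPM, *Brca1* 35.9 and 40.1 against 33.2 and 42.6 CPM, *Bard1* 12.6 and 14.5 against 11.3 and 14 CPM). The first principal component of all genes (56.9% of the variance) separated the days. Both siWdr5 libraries of day 6 lay on it between the day 3 libraries and the other day 6 libraries. They had 23.33 in replicate 1 and 8.28 in replicate 2, the largest library. The other day 6 libraries had 37.11 to 56.87. The nt control had 56.87 and 56.02 at day 6 and -18.31 and -23.92 at day 3. All 8 fibroblast markers were read in every library, with a summed level of 5797 and 6725 CPM in the nt control at day 3, 11448 and 11769.9 in siWdr5, 9857 and 8569 in siBrca1 and 8631 and 7409.6 in siBard1, so that the sum was higher in all 6 knockdown libraries. The markers did not move as one, since 8 of 8 rose in siWdr5, 4 rose and 1 (*Dcn*) fell in siBrca1, and 0 rose and 1 (*Dcn*) fell in siBard1. Their part in the changes given below was not tested.

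Per kilobase of exons, nt control cells of day 3 expressed a small set of subunits at high level and many at a trace. Among the betas, *Itgb1*, the common partner of most alphas, made up 70.4% and 69.5% of the summed level in replicates 1 and 2, and *Itgb5*, a partner of alpha v, 18.7% and 18.1%. Of the alphas, *Itga5* (the fibronectin receptor with beta 1) held 37% and 41.8% and *Itgav* (which pairs with several betas) 25.7% and 23.2%. The laminin-binding *Itga3* and *Itga6* followed with 11.9% and 12.4% and 11.9% and 9.9%. Laminin beta chain transcripts were split almost evenly between *Lamb1* (49.2% and 49.1%) and *Lamb2* (50.8% and 50.8%), while *Lamc1* made up 97.9% and 98.4% of the gamma chains. The alpha chains were *Lama1* (38.1% and 36.5%), *Lama4* (31.1% and 29.6%) and *Lama5* (26.7% and 29%) with traces of *Lama2* and *Lama3*. These shares use the merged exons of each gene in GENCODE vM21 as its length, which need not be the transcripts the cells make.

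Promoter windows of members, from 250 bases before to 50 bases after the RefSeq start (GRCm38.p6, the build of the deposited alignment), were found for 24 of the 39 genes (27 windows). They were searched on both strands for the AP-1 letters TGACTCA, the TEAD letters GGAATG and the SRF CArG box, the motifs of factors known from adhesion and cytoskeletal genes. AP-1 letters stood in 3.7% of the member windows and 5.2% of all 32851 windows, TEAD letters in 11.1% and 14.7%, and a CArG box in 7.41% and 1.63%. The member shares rest on 1, 3 and 2 of the 27 windows and were not tested against those of all windows. The windows with a match in *Itga9*, *Lama2*, *Lamb3* and *Itgb6* lie inside the gene as annotated in GENCODE vM21, not at its outer end. The windows of the fibronectin receptor pair *Itga5* (chr15:103366742-103367041, minus strand) and *Itgb1* (chr8:128685404-128685703, plus strand) and of the laminin chains *Lama2* (chr10:27616893-27617192, minus strand) and *Lama5* (chr2:180225810-180226109, minus strand) are printed 5′ to 3′ as the windows of a receptor pair and of chains that are described below. Capitals mark the TEAD letters of *Itgb1*, 7 bases before its start, and the CArG box of *Lama2*, 39 bases before its start. *Itga5* and *Lama5* held none of the 3 motifs in these windows.
Itga5: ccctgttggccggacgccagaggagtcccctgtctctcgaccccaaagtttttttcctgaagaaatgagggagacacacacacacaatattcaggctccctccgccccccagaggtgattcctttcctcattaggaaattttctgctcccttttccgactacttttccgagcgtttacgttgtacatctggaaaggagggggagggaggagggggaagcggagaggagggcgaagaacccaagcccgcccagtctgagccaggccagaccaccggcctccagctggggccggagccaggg
Itgb1: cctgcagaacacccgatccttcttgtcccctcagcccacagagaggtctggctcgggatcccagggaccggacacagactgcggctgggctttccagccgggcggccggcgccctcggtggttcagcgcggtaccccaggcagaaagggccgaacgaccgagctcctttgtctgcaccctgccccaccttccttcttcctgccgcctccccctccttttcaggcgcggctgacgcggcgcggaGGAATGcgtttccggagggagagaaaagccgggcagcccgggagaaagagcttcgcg
Lama2: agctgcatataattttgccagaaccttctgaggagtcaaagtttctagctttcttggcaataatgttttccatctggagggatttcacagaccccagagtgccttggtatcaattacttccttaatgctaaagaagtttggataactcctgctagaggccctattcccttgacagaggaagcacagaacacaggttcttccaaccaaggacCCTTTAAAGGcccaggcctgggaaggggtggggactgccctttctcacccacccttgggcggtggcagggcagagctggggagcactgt
Lama5: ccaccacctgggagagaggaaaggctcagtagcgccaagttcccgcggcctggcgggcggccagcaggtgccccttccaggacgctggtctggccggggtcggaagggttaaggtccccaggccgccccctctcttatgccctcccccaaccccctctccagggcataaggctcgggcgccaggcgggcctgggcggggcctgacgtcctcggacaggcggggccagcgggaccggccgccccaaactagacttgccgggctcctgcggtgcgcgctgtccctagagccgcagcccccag

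Differential expression was tested by limma on the deposited log2 CPM, over the 14028 genes whose log2 CPM averaged 0 or more across the 16 libraries (about 1 CPM). Of the 39 members, 33 passed this filter. A gene was called changed at an adjusted p under 0.05. At day 3 the knockdowns raised many more members than they lowered. siBrca1 changed 23 of 33 members (20 higher, 3 lower), beside 47.2% of all genes tested (25.4% higher, 21.8% lower). siWdr5 changed 18 (15 higher, 3 lower), beside 35.0% of all genes (18.3% higher, 16.8% lower), and siBard1 changed 12 (10 higher, 2 lower), beside 14.5% (8.67% higher, 5.87% lower). The median log2-fold change of the members was 0.60 in siBrca1, 0.45 in siWdr5 and 0.22 in siBard1, where the median of all genes was 0.00, -0.04 and -0.02. A 2-fold change was passed by 10 of the called members in siBrca1, 6 in siWdr5 and 2 in siBard1, beside 13.4%, 7.05% and 2.24% of all genes. Of the 29 tested members that are subunits, 21 were called in siBrca1, 16 in siWdr5 and 12 in siBard1, beside the same shares of all genes. Of these called subunits 10, 4 and 2 passed 2-fold. The 3 comparisons share the same nt control libraries and are therefore not independent of each other. Leaving out 1 library at a time left 19 to 24 calls in siBrca1 and 12 to 14 in siWdr5. In siBard1, 4 calls remained without nt control replicate 1, 6 without nt control replicate 2, 6 without siBard1 replicate 1 and 9 without siBard1 replicate 2.

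**Figure D1:**
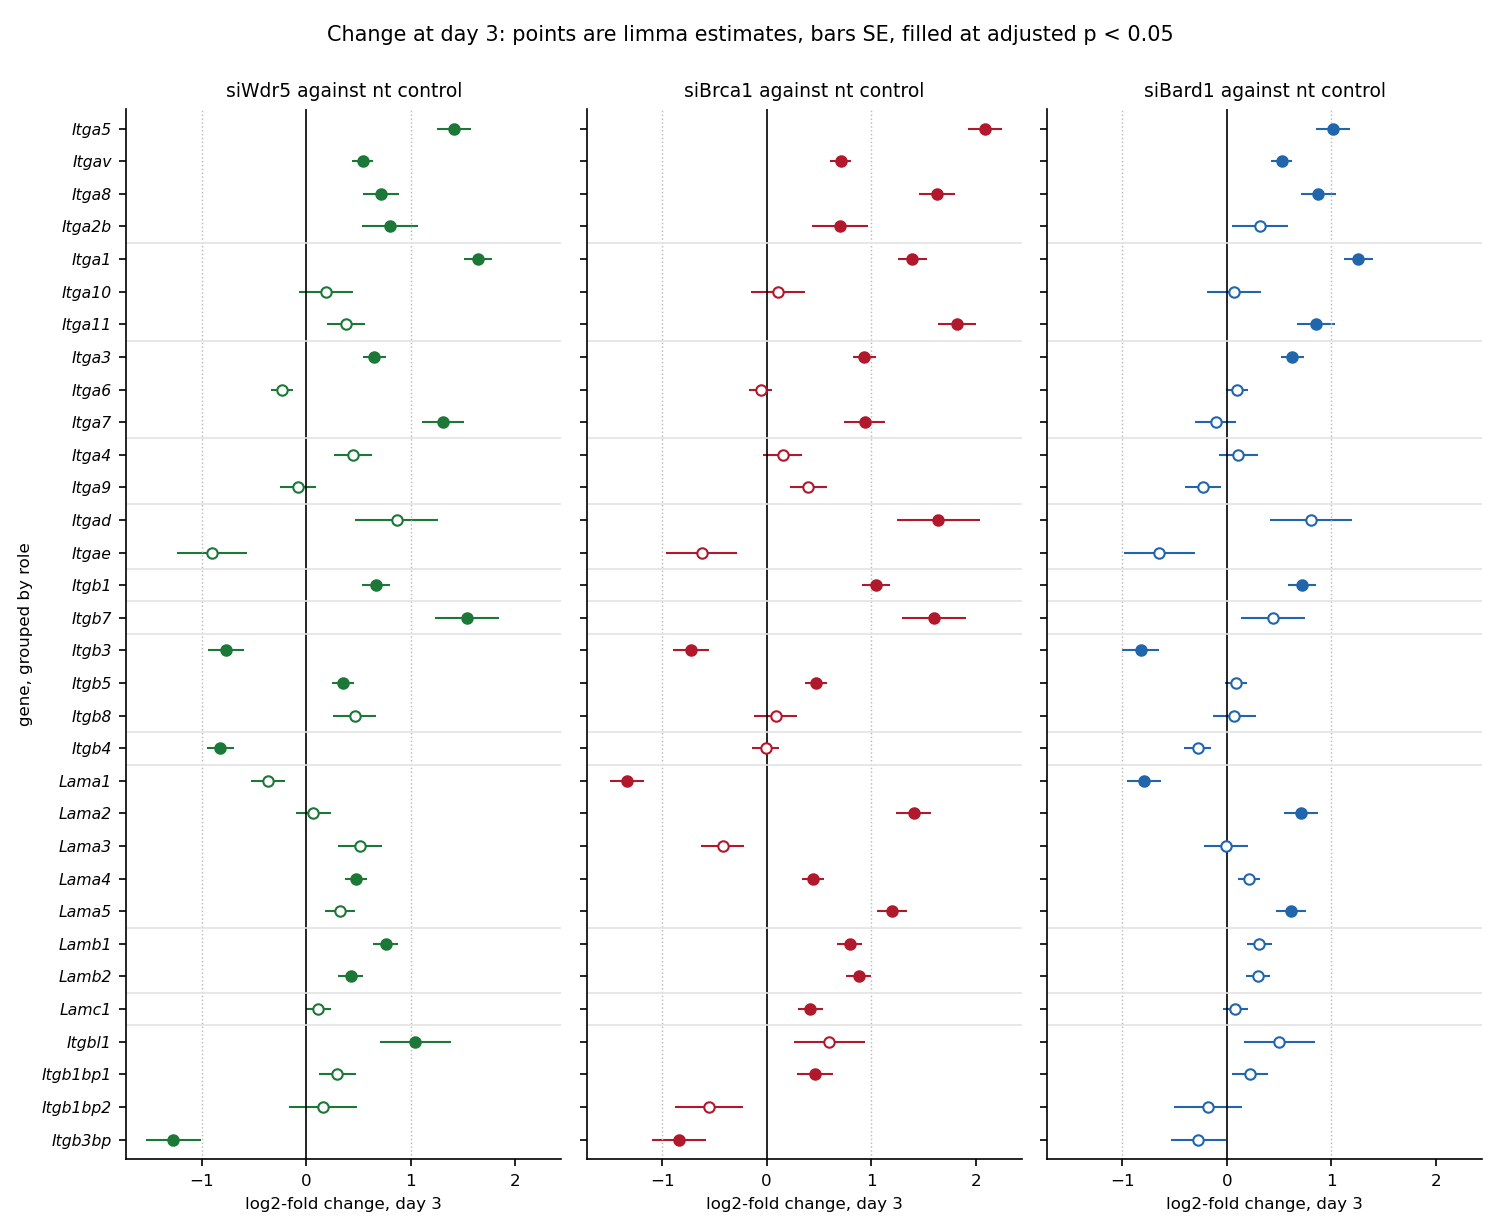
Log2-fold change at day 3 of 32 tested members (grouped by role) in siWdr5, siBrca1 and siBard1 against the nt control. Points are limma estimates, bars are SE, and filled points are called at adjusted p < 0.05. In siBrca1 19 filled points lie right of 0 and 3 left of it, and *Itga5* lies farthest right (2.09).

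The largest rise of a member in siBrca1 was that of an RGD-binding alpha. *Itga5*, the alpha subunit of the classical fibronectin receptor, stood at 119 and 148 CPM in the nt control libraries of day 3, 345 and 359 in siWdr5, 478 and 666 in siBrca1 and 306 and 233 in siBard1. All 6 knockdown libraries lay above both nt control libraries, and siBrca1 was the highest group. *Itga5* rose in each knockdown, with log2-fold changes (± SE) of 2.09 ± 0.16 in siBrca1, 1.41 ± 0.16 in siWdr5 and 1.01 ± 0.16 in siBard1 (adjusted p = 1.39e-06, 3.77e-05 and 0.00163). Its share of the integrin alpha level per kilobase went from 37% and 41.8% in the nt control to 60.0% and 65.1% in siBrca1.

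*Itgav*, the alpha subunit of vitronectin receptors and of integrins that bind latent TGFβ, stood at 179.6 and 178 CPM in the nt control, 254 and 266 in siWdr5, 278 and 307 in siBrca1 and 259.6 and 254 in siBard1. The nt control libraries were again the lowest, without overlap. Its rise was 0.71 ± 0.10 in siBrca1, 0.54 ± 0.10 in siWdr5 and 0.52 ± 0.10 in siBard1 (adjusted p = 8.41e-05, 0.00107 and 0.00433). *Itga8*, known as the receptor for nephronectin in the developing kidney, stood at 9.5 and 8.52 CPM in the nt control, 13.5 and 16.1 in siWdr5, 23.8 and 32.7 in siBrca1 and 17.1 and 15.9 in siBard1. Both nt control libraries lay lowest, and siBrca1 stood above the other groups. The log2-fold changes of *Itga8* were 1.63 ± 0.17 in siBrca1, 0.71 ± 0.17 in siWdr5 and 0.88 ± 0.17 in siBard1 (adjusted p = 1.07e-05, 0.00563 and 0.00521). Its call was lost in siWdr5 without nt control replicate 2 (adjusted p = 0.0548) or siWdr5 replicate 2 (0.0763), and in siBard1 without nt control replicate 2 (0.0574) or siBard1 replicate 1 (0.0513). *Itgav* lost its call in siBard1 without nt control replicate 1 (adjusted p = 0.0638) or replicate 2 (0.0591).

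**Figure D2:**
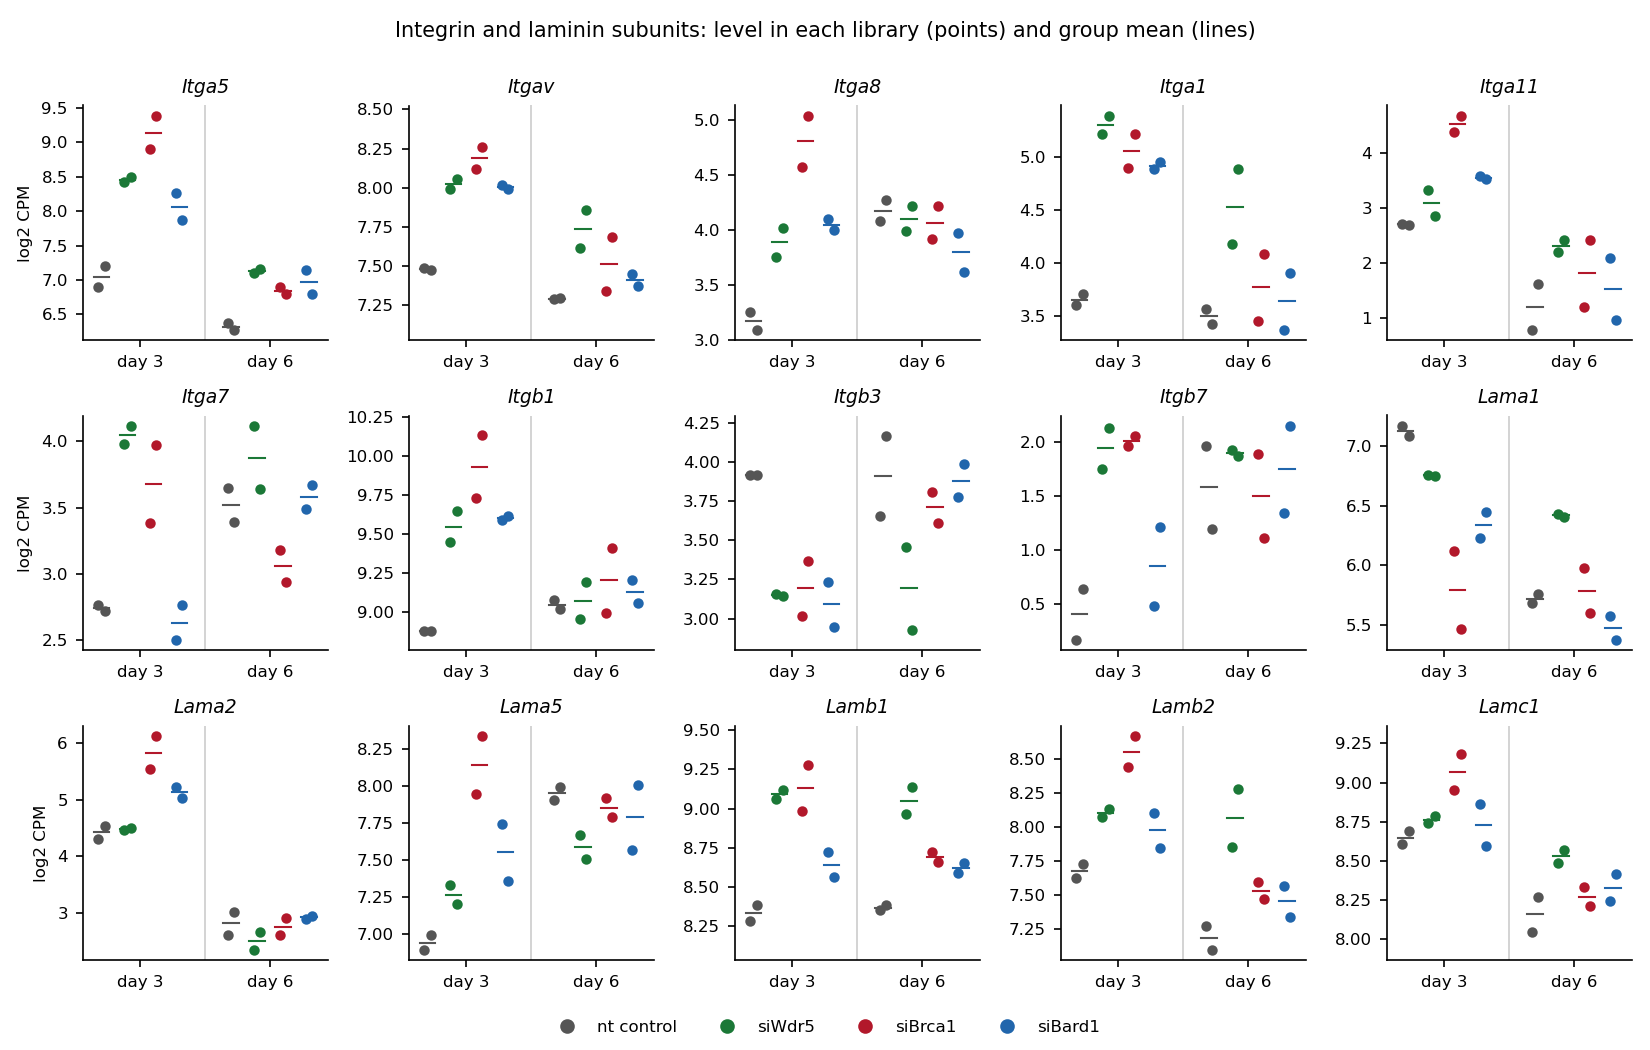
Level of 15 subunits (log2 CPM, each panel with its own axis) in the 2 libraries of each group at day 3 and day 6. Points are libraries, lines are group means, and colours mark the nt control and the 3 knockdowns. At day 3 *Itga5* lies lowest in the nt control (119 and 148 CPM) and highest in siBrca1 (478 and 666 CPM), whereas *Lama1* lies highest in the nt control (144 and 136 CPM) and lowest in siBrca1 (69.3 and 44.1 CPM).

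*Itga2b*, the platelet alpha subunit that binds fibrinogen, was read at a trace level of 2.31 and 3.79 CPM in the nt control, 5.49 and 4.85 in siWdr5, 4.34 and 5.34 in siBrca1 and 3.15 and 4.29 in siBard1. The siWdr5 and siBrca1 libraries lay above the nt control, and those of siBard1 overlapped it. The log2-fold changes were 0.80 ± 0.27 in siWdr5, 0.70 ± 0.27 in siBrca1 and 0.31 ± 0.27 in siBard1 (adjusted p = 0.0324, 0.0444 and 0.455). The call in siWdr5 was lost without nt control replicate 1 (adjusted p = 0.327), siWdr5 replicate 1 (0.182) or siWdr5 replicate 2 (0.0964), and that in siBrca1 without nt control replicate 1 (0.409) or siBrca1 replicate 2 (0.15). Of 7 megakaryocyte and platelet markers 3 were in the table (*Ppbp* with 3 to 214 reads, *Gp1bb* with 4 to 25 and *Gp1ba* with 8 to 44). *Pf4*, *Gp9*, *Gp6* and *Treml1* were not among its rows. Of the 2 tested, *Ppbp* rose in each knockdown (3.30 in siWdr5, 2.10 in siBrca1 and 1.12 in siBard1) and *Gp1ba* in siBrca1 alone. The summed level of the 3 was 2.78 and 3.15 CPM in the nt control, 14.8 and 17.1 in siWdr5, 7.86 and 10.0 in siBrca1 and 4.4 and 4.51 in siBard1. The part of these markers in the *Itga2b* values was not tested.

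Of the collagen-binding alphas, *Itga1*, a receptor that favours the collagen IV of basement membranes, stood at 12.1 and 13.1 CPM in the nt control, 37.1 and 41.6 in siWdr5, 29.7 and 37 in siBrca1 and 29.4 and 30.8 in siBard1. The knockdown libraries were all well above the nt control, siBrca1 and siBard1 overlapped each other, and siWdr5 lay just above both. *Itga1* rose by 1.64 ± 0.14 in siWdr5, 1.40 ± 0.14 in siBrca1 and 1.26 ± 0.14 in siBard1 (adjusted p = 3.78e-06, 6.85e-06 and 0.000163), and these calls held with every library left out in turn. *Itga11*, the fibrillar collagen receptor of fibroblasts, stood at 6.6 and 6.47 CPM in the nt control, 10.0 and 7.24 in siWdr5, 20.9 and 25.5 in siBrca1 and 12.1 and 11.5 in siBard1. siBrca1 was the highest group by far, followed by siBard1, while siWdr5 lay only just above the nt control. Its log2-fold changes were 1.82 ± 0.18 in siBrca1, 0.85 ± 0.18 in siBard1 and 0.38 ± 0.18 in siWdr5 (adjusted p = 7.78e-06, 0.00864 and 0.117). The siBard1 call of *Itga11* was lost with any 1 of the 4 libraries compared left out (adjusted p = 0.0587 to 0.0663). *Itga10*, the collagen receptor known from cartilage, stood between 2.29 and 3.76 CPM in the 16 libraries and was called in none of the 3 knockdowns, with log2-fold changes of 0.19, 0.11 and 0.07 in siWdr5, siBrca1 and siBard1. By the annotation 33.5% of its exon bases lie in another gene on the same strand (*Gm42957*), so its reads may be shared.

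The laminin-binding alphas did not move as a group. *Itga3*, a receptor for the laminins of epithelial basement membranes that fibroblasts also carry, stood at 44.4 and 50.7 CPM in the nt control, 74.7 and 74.3 in siWdr5, 90.5 and 90.8 in siBrca1 and 78 and 68.6 in siBard1. The 6 knockdown libraries lay above the nt control, and the rise was 0.93 ± 0.11 in siBrca1, 0.65 ± 0.11 in siWdr5 and 0.62 ± 0.11 in siBard1 (adjusted p = 2.56e-05, 0.000642 and 0.0029). Without nt control replicate 1 the siBard1 call of *Itga3* was lost (adjusted p = 0.0712). *Itga6*, the partner of beta 4 in the hemidesmosomes of epithelia and a surface marker of pluripotent cells, stood at 69.7 and 63.9 CPM in the nt control, 55 and 58.6 in siWdr5, 64.7 and 63.7 in siBrca1 and 67.4 and 75.3 in siBard1. Only siWdr5 lay apart from the nt control, below it, and no change was called (-0.23 ± 0.11 in siWdr5, -0.06 ± 0.11 in siBrca1 and 0.10 ± 0.11 in siBard1, adjusted p = 0.109, 0.694 and 0.584).

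*Itga7*, the laminin receptor of muscle, stood at 6.8 and 6.58 CPM in the nt control, 15.8 and 17.3 in siWdr5, 10.5 and 15.7 in siBrca1 and 5.67 and 6.79 in siBard1. siWdr5 and siBrca1 lay above the nt control, whereas siBard1 reached no higher than it. The log2-fold changes were 1.31 ± 0.20 in siWdr5, 0.94 ± 0.20 in siBrca1 and -0.11 ± 0.20 in siBard1 (adjusted p = 0.000285, 0.00157 and 0.752). Of 7 skeletal muscle markers 4 were in the table, *Des* and the weakly read *Actc1*, *Tnnt1* and *Chrna1*, and *Myod1*, *Myog* and *Myf5* were not among its rows. Their summed level was 32 and 42.6 CPM in the nt control, 141 and 141 in siWdr5, 165 and 174 in siBrca1 and 92.6 and 79.1 in siBard1, and its part in the *Itga7* values was not tested. *Itga4* and *Itga9*, which bind the VCAM1 of other cells and tenascin or osteopontin, were not called at day 3, with log2-fold changes of 0.45, 0.15 and 0.11 for *Itga4* and -0.08, 0.40 and -0.23 for *Itga9* in siWdr5, siBrca1 and siBard1.

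Integrins of white blood cells were at trace levels. *Itgb7*, the beta subunit of lymphocyte homing receptors, stood at 1.13 and 1.56 CPM in the nt control, 3.37 and 4.38 in siWdr5, 3.9 and 4.15 in siBrca1 and 1.4 and 2.32 in siBard1. siWdr5 and siBrca1 lay above the nt control, and siBard1 overlapped it. *Itgb7* had log2-fold changes of 1.60 ± 0.30 in siBrca1, 1.54 ± 0.30 in siWdr5 and 0.44 ± 0.30 in siBard1 (adjusted p = 0.000741, 0.00182 and 0.347). *Itgad*, an alpha subunit of macrophages, stood at 1.32 and 1.05 CPM in the nt control, 1.5 and 3.06 in siWdr5, 2.72 and 4.99 in siBrca1 and 2.66 and 1.59 in siBard1, and was called in siBrca1 alone (1.64 ± 0.40 in siBrca1, 0.86 ± 0.40 in siWdr5 and 0.80 ± 0.40 in siBard1, adjusted p = 0.00378, 0.105 and 0.183). The E-cadherin receptor alpha *Itgae*, at 0.747 to 1.92 CPM over all libraries, was lower in all 6 knockdown libraries than in the nt control but not called (-0.90 ± 0.34 in siWdr5, -0.62 ± 0.34 in siBrca1 and -0.65 ± 0.34 in siBard1, adjusted p = 0.0508, 0.145 and 0.209). Of 13 leukocyte markers 9 were in the table and *Ptprc*, which defines white blood cells, was not among its rows. Of the 9, *Laptm5* had 92 to 252 reads, *Cd68* 60 to 187, *Lyz2* 3 to 126, *Mrc1* 11 to 124, *Csf1r* 12 to 109 and *Cd14* 10 to 51, and the lowest were *Adgre1* (0 to 16), *Tyrobp* (0 to 10) and *C1qb* (0 to 6). *Csf1r* and *Laptm5* rose in siWdr5, and *Cd68* and *Csf1r* in siBrca1. Their summed level was 18.2 and 16.7 CPM in the nt control, 29.3 and 30.8 in siWdr5, 33.2 and 25.9 in siBrca1 and 18.5 and 18.2 in siBard1, and its part in the *Itgb7* and *Itgad* values was not tested.

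Among the beta subunits, *Itgb1* stood at 472 and 472 CPM in the nt control, 700.0 and 801 in siWdr5, 848 and 1123 in siBrca1 and 771 and 785 in siBard1. The nt control libraries lay together at the bottom, with no overlap. The rise of *Itgb1* was 1.05 ± 0.13 in siBrca1, 0.72 ± 0.13 in siBard1 and 0.67 ± 0.13 in siWdr5 (adjusted p = 4.57e-05, 0.00392 and 0.00203), and the siBard1 call was lost without nt control replicate 1 (adjusted p = 0.0522). *Itgb3*, a partner of alpha v and of the platelet alpha, moved the other way, with 15.1 and 15.1 CPM in the nt control, 8.91 and 8.83 in siWdr5, 8.1 and 10.3 in siBrca1 and 9.39 and 7.72 in siBard1. Both nt control libraries lay above all knockdown libraries. The log2-fold changes of *Itgb3* were -0.83 ± 0.17 in siBard1, -0.77 ± 0.17 in siWdr5 and -0.72 ± 0.17 in siBrca1 (adjusted p = 0.0082, 0.00434 and 0.00388), of which the siBard1 call was lost without nt control replicate 1 (adjusted p = 0.0807), nt control replicate 2 (0.0682) or siBard1 replicate 2 (0.0857).

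*Itgb5*, the beta of a vitronectin receptor, stood at 109 and 107 CPM in the nt control, 136 and 139.8 in siWdr5, 141 and 159 in siBrca1 and 123 and 108 in siBard1. siWdr5 and siBrca1 lay above the nt control and siBard1 did not stand clear of it. The log2-fold changes were 0.47 ± 0.11 in siBrca1, 0.35 ± 0.11 in siWdr5 and 0.09 ± 0.11 in siBard1 (adjusted p = 0.0024, 0.0197 and 0.608). With any 1 of the 4 libraries compared left out, the siWdr5 call of *Itgb5* was lost (adjusted p = 0.0852 to 0.128). *Itgb4*, the hemidesmosome beta of epithelia, stood at 98.1 and 117 CPM in the nt control, 61.1 and 59.8 in siWdr5, 119.8 and 94.7 in siBrca1 and 94 and 83 in siBard1. siWdr5 lay below the other groups, and siBrca1 spread across the nt control. Of its log2-fold changes, -0.83 ± 0.13 in siWdr5, -0.28 ± 0.13 in siBard1 and -0.01 ± 0.13 in siBrca1 (adjusted p = 0.000378, 0.161 and 0.964), only the first was called. The summed level of 8 epithelial markers was 68.8 and 46.4 CPM in the nt control, 23 and 23.3 in siWdr5, 38 and 24.9 in siBrca1 and 47.2 and 39.4 in siBard1, and its part in the *Itgb4* values was not tested. These markers did not move as one. Of the 7 tested, 0 rose and 3 fell in siWdr5, 1 rose and 2 fell in siBrca1, and 0 were called in siBard1. *Itgb8*, another partner of alpha v, was not called at day 3 (log2-fold changes 0.46, 0.09 and 0.07 in siWdr5, siBrca1 and siBard1).

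The laminin alpha chains changed their make-up at day 3, most of all in siBrca1. *Lama1*, the alpha chain of the earliest embryonic basement membranes, stood at 144 and 136 CPM in the nt control, 108 and 108 in siWdr5, 69.3 and 44.1 in siBrca1 and 74.8 and 87.4 in siBard1. All knockdown libraries lay below the nt control, siBrca1 the lowest. *Lama1* had log2-fold changes of -1.34 ± 0.16 in siBrca1, -0.79 ± 0.16 in siBard1 and -0.37 ± 0.16 in siWdr5 (adjusted p = 3.15e-05, 0.00709 and 0.0914), and the siBard1 call was lost without nt control replicate 1 (adjusted p = 0.0696) or siBard1 replicate 1 (0.0752). *Lama5*, the broadly expressed alpha chain of epithelial basement membranes, stood at 119 and 127 CPM in the nt control, 161 and 147 in siWdr5, 247 and 323 in siBrca1 and 214 and 164 in siBard1. Here the knockdown libraries lay above the nt control and siBrca1 was the highest. The log2-fold changes of *Lama5* were 1.20 ± 0.14 in siBrca1, 0.61 ± 0.14 in siBard1 and 0.32 ± 0.14 in siWdr5 (adjusted p = 2.72e-05, 0.0136 and 0.0932). Its siBard1 call was lost without nt control replicate 1 (adjusted p = 0.123), nt control replicate 2 (0.0657) or siBard1 replicate 1 (0.117).

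*Lama2*, the alpha chain of the basement membrane around muscle and peripheral nerve, stood at 19.8 and 23.2 CPM in the nt control, 22.2 and 22.6 in siWdr5, 46.6 and 69.6 in siBrca1 and 37.4 and 32.8 in siBard1. siWdr5 fell within the nt control values, whereas siBrca1 and siBard1 lay above them. Its log2-fold changes were 1.41 ± 0.17 in siBrca1, 0.71 ± 0.17 in siBard1 and 0.06 ± 0.17 in siWdr5 (adjusted p = 2.59e-05, 0.0138 and 0.792), and the siBard1 call was lost without nt control replicate 1 (adjusted p = 0.14), siBard1 replicate 1 (0.104) or siBard1 replicate 2 (0.0618). *Lama4*, the alpha chain of vessel walls and mesenchyme, stood at 146 and 138 CPM in the nt control, 187 and 208 in siWdr5, 181 and 205 in siBrca1 and 166 and 162 in siBard1. It was higher in every knockdown library, by 0.47 ± 0.11 in siWdr5, 0.44 ± 0.11 in siBrca1 and 0.21 ± 0.11 in siBard1 (adjusted p = 0.00377, 0.00366 and 0.199). Without nt control replicate 2 the *Lama4* calls were lost in siWdr5 (adjusted p = 0.0544) and siBrca1 (0.0527), and without siWdr5 replicate 2 the former was lost too (0.0548). *Lama3*, the alpha chain of skin and other lining epithelia, was at 2.94 to 7.85 CPM over all libraries and was not called at day 3 (0.52 ± 0.21 in siWdr5, -0.42 ± 0.21 in siBrca1 and -0.01 ± 0.21 in siBard1, adjusted p = 0.0695, 0.113 and 0.978).

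Per kilobase, *Lama1* went from 38.1% and 36.5% of the laminin alpha level in the nt control libraries to 15.2% and 8.36% in siBrca1, 18% and 23% in siBard1 and 26.2% and 25.7% in siWdr5. The leading alpha chain was *Lama1* in the nt control, *Lama5* in siBrca1 (46.1% and 52.1%) and siBard1 (43.7% and 36.6%), and *Lama4* in siWdr5 (36.2% and 39.8%). The summed alpha level itself differed less, at 39 and 38.5 CPM per kilobase in the nt control, 42.7 and 43.3 in siWdr5, 47 and 54.5 in siBrca1 and 42.9 and 39.3 in siBard1. These shares are descriptions and were not tested.

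**Figure D3:**
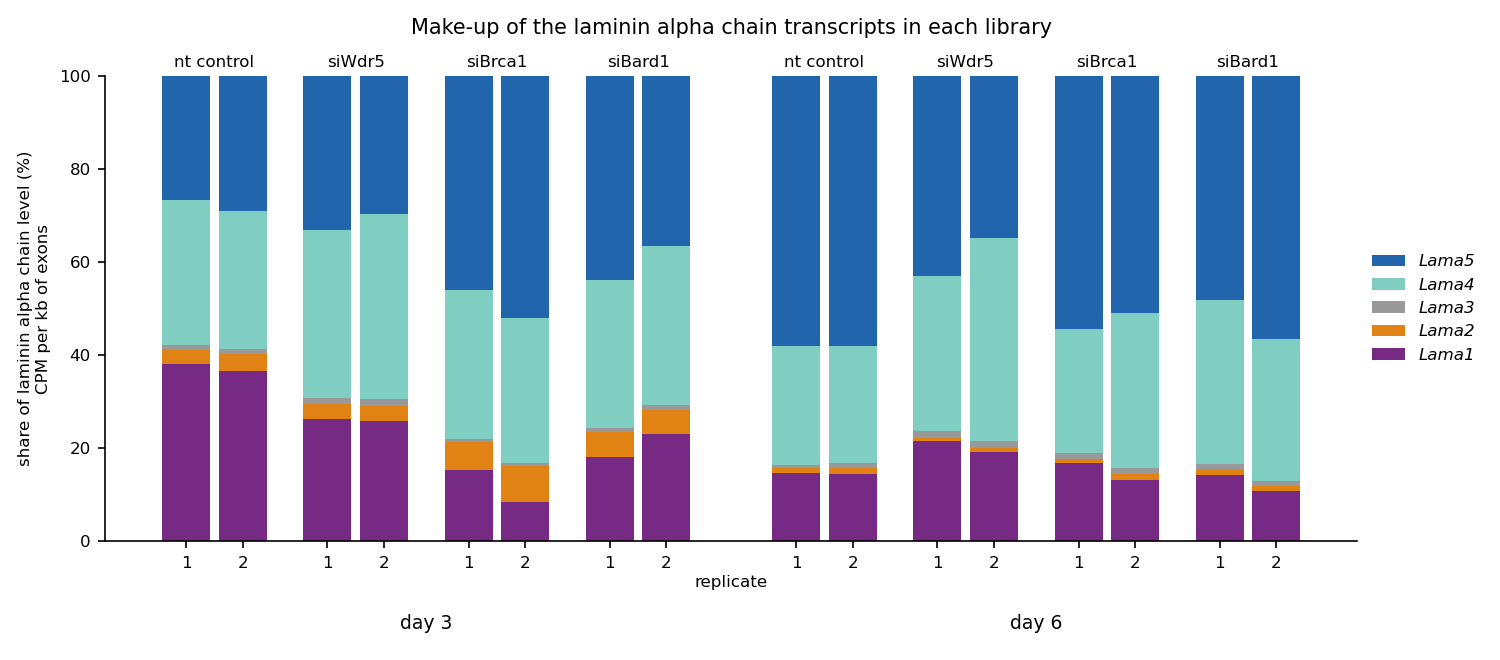
Share of each laminin alpha chain in the summed alpha chain level (%, CPM per kilobase of exons) in each of the 16 libraries, by group and replicate. *Lama1* makes up 38.1% and 36.5% in the nt control of day 3, 15.2% and 8.36% in siBrca1 of day 3, and 14.6% and 14.5% in the nt control of day 6, where *Lama5* holds 58.1% in both libraries.

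The beta and gamma chains are shared by most laminin trimers. *Lamb1* stood at 311 and 335 CPM in the nt control, 535 and 557 in siWdr5, 506 and 622 in siBrca1 and 423 and 378 in siBard1. All 6 knockdown libraries lay above the nt control, siWdr5 and siBrca1 by more than siBard1. The log2-fold changes of *Lamb1* were 0.80 ± 0.12 in siBrca1, 0.76 ± 0.12 in siWdr5 and 0.31 ± 0.12 in siBard1 (adjusted p = 0.000138, 0.000367 and 0.0947). *Lamb2*, the beta chain of the kidney filter and the neuromuscular junction, stood at 197 and 212 CPM in the nt control, 269 and 280.0 in siWdr5, 348 and 407 in siBrca1 and 276 and 229 in siBard1. siBrca1 was the highest group, and siWdr5 and siBard1 overlapped each other above the nt control. Its log2-fold changes were 0.88 ± 0.12 in siBrca1, 0.42 ± 0.12 in siWdr5 and 0.30 ± 0.12 in siBard1 (adjusted p = 6.19e-05, 0.0128 and 0.101), and the siWdr5 call was lost without nt control replicate 1 (adjusted p = 0.125), siWdr5 replicate 1 (0.0658) or siWdr5 replicate 2 (0.0929).

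*Lamc1*, the gamma chain of nearly all laminins, stood at 389.6 and 413 CPM in the nt control, 428 and 441 in siWdr5, 495 and 580.5 in siBrca1 and 466 and 386 in siBard1. siWdr5 and siBrca1 lay above the nt control, the latter by more, and siBard1 overlapped it. Its log2-fold changes were 0.42 ± 0.12 in siBrca1, 0.11 ± 0.12 in siWdr5 and 0.08 ± 0.12 in siBard1 (adjusted p = 0.011, 0.49 and 0.697), and the siBrca1 call was lost without nt control replicate 1 (adjusted p = 0.1) or siBrca1 replicate 2 (0.0726).

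The 4 genes that are members by symbol only went their own ways. *Itgb3bp*, a centromere protein, stood at 4.89 and 4.3 CPM in the nt control, 1.69 and 2.13 in siWdr5, 3.01 and 2.18 in siBrca1 and 3.43 and 4.19 in siBard1. The nt control lay above all knockdown libraries. Its log2-fold changes were -1.27 ± 0.26 in siWdr5, -0.84 ± 0.26 in siBrca1 and -0.27 ± 0.26 in siBard1 (adjusted p = 0.00223, 0.0166 and 0.505), and the siBrca1 call was lost without nt control replicate 1 (adjusted p = 0.117), nt control replicate 2 (0.0511) or siBrca1 replicate 2 (0.113). *Itgbl1*, a secreted protein with integrin beta-like repeats, rose by 1.04 in siWdr5 (adjusted p = 0.0284) from 0.73 and 1.16 to 2.0 and 1.8 CPM, next to 1.46 and 1.33 in siBrca1 and 1.19 and 1.44 in siBard1, and the call was lost without nt control replicate 1 (0.248), siWdr5 replicate 1 (0.143) or siWdr5 replicate 2 (0.089). *Itgb1bp1*, which binds the tail of beta 1 and restrains its activation, rose by 0.46 in siBrca1 (adjusted p = 0.0431) from 19.1 and 20.3 to 23 and 31.9 CPM, and this call was lost without nt control replicate 1 (0.177), nt control replicate 2 (0.1) or siBrca1 replicate 2 (0.3). *Itgb1bp2*, a muscle protein, was not called.

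The knockdowns were also compared with each other at day 3, without the nt control. Against siBard1, siBrca1 had 12 of 33 members changed (11 higher, 1 lower), beside 21.4% of all genes (13.1% higher, 8.33% lower). Of these, 3 passed 2-fold, beside 3.01% of all genes. The higher ones were *Itgb7* (1.16), *Itga5* (1.08), *Itga7* (1.05), *Itga11* (0.97), *Itga8*, *Lama2*, *Itga9*, *Lama5*, *Lamb2*, *Lamb1* and *Itgb5* (0.39), and *Lama1* was lower (-0.55). All 12 calls were lost without siBard1 replicate 2 (adjusted p = 0.0923 to 0.241), 6 calls were made without siBrca1 replicate 2, 11 without siBard1 replicate 1 and 18 without siBrca1 replicate 1.

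Against siWdr5, siBrca1 had 9 members changed (7 higher, 2 lower), beside 15.7% of all genes (10.2% higher, 5.47% lower), and 2 of them passed 2-fold, beside 4.73%. *Itga11* (1.44), *Lama2* (1.34), *Itga8* (0.92), *Lama5* (0.88), *Itgb4* (0.82), *Itga5* (0.68) and *Lamb2* (0.45) were higher in siBrca1, and *Lama1* (-0.97) and *Lama3* (-0.94) were lower. Without siWdr5 replicate 1, 5 calls were made, without siWdr5 replicate 2 there were 6, and without siBrca1 replicate 1 there were 13. siWdr5 and siBard1 differed in 6 members, beside 8.63% of all genes (4.85% higher, 3.78% lower), 2 of them past 2-fold, beside 2.05%, with *Itga7* (1.42), *Itgb7* (1.09) and *Lamb1* (0.45) higher in siWdr5 and *Itgb3bp* (-1.0), *Lama2* (-0.64) and *Itgb4* (-0.55) lower. Only *Itga7* kept its call whichever library of this comparison was left out, and 1 call was made without siWdr5 replicate 1, siWdr5 replicate 2 or siBard1 replicate 2 and 2 without siBard1 replicate 1.

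Between day 3 and day 6 of the nt control, 14 members changed (7 higher, 7 lower), beside 46.2% of all genes (19.0% higher, 27.1% lower). Of these members 7 passed 2-fold, beside 11.8% of all genes. The median log2-fold change of the members was -0.01, against -0.07 for all genes. The laminin alpha chains again moved apart. *Lama1* fell from 144 and 136 to 51.3 and 54 CPM (-1.41 ± 0.17, adjusted p = 1.46e-05) and *Lama2* from 19.8 and 23.2 to 6.13 and 8.11 CPM (-1.60 ± 0.20, adjusted p = 1.72e-05), while *Lama5* rose from 119 and 127 to 239 and 255 CPM (1.01 ± 0.16, adjusted p = 0.000123). The values of the days did not overlap for these 3 chains. *Lamb2* and *Lamc1* fell (both -0.49).

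Of the integrins, *Itga5* fell from 119 and 148 to 82.7 and 77.6 CPM (-0.73 ± 0.16, adjusted p = 0.00201) and *Itga11* from 6.6 and 6.47 to 1.74 and 3.09 CPM (-1.50 ± 0.38, adjusted p = 0.0045), and *Itga3* fell by less (-0.41). *Itga8* rose from 9.5 and 8.52 to 16.9 and 19.3 CPM (1.00 ± 0.18, adjusted p = 0.000388), as did *Itgb7* (1.17) and *Itga7* (0.78), beside the non-subunits *Itgbl1* (1.18) and *Itgb3bp* (0.81). *Itgb1* had 541 and 519 CPM at day 6, with no change called (0.17 ± 0.15, adjusted p = 0.402). The summed epithelial markers went from 68.8 and 46.4 to 565 and 755 CPM over the same time and the fibroblast markers from 5797 and 6725 to 3942 and 3915 CPM, and their part was not tested. Of the 8 fibroblast markers 4 rose and 2 fell, with a median log2-fold change of 0.78, so that the fall of the sum is not that of the list. The calls of *Lama1*, *Lama2*, *Lama5*, *Itga5* and *Itga8* held with each of the 4 libraries left out. The other 9 were lost in at least 1 case, with 12 calls made without nt control replicate 1 of day 3, 10 without replicate 2 of day 3, 9 without replicate 1 of day 6 and 13 without replicate 2 of day 6.

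At day 6, siWdr5 changed 13 members (10 higher, 3 lower), beside 21.8% of all genes (16.1% higher, 5.70% lower), and 2 passed 2-fold, beside 4.83%. The median of the members was 0.36, and that of all genes 0.08. *Itga5* stood at 82.7 and 77.6 CPM in the nt control and 137 and 143 in siWdr5 (0.80 ± 0.13, adjusted p = 0.00496). *Lamb1* had 327 and 334 CPM in the nt control and 501 and 562 in siWdr5 (0.68 ± 0.12, adjusted p = 0.0068) and *Lamb2* 154 and 137 and, in siWdr5, 231 and 311 CPM (0.88 ± 0.16, adjusted p = 0.00672). The groups did not overlap for any of these 3. *Lama1* was now higher in siWdr5, at 86.4 and 84.8 CPM against 51.3 and 54 (0.70 ± 0.14, adjusted p = 0.00994). *Lama3* stood at 6.75 and 7.85 against 2.94 and 3.88 CPM (1.11 ± 0.22, adjusted p = 0.00975) and *Itga1* at 18.1 and 29.5 against 11.9 and 10.7 CPM (1.03 ± 0.28, adjusted p = 0.0272). Also higher were *Lama4* (0.82), *Itgb8* (0.77), *Itga3* (0.60) and *Itgav* (0.45).

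The 3 lower members in siWdr5 at day 6 were *Itga4* (15.4 and 18.2 against 9.93 and 7.2 CPM, -0.99 ± 0.22, adjusted p = 0.0131), *Itgb3* (-0.72) and *Itgb3bp* (-0.96). These day 6 calls rest on few libraries. None of the 13 was made without siWdr5 replicate 2 (adjusted p = 0.0692 to 0.325), 1 was made without nt control replicate 2, 2 without nt control replicate 1, and 12 without siWdr5 replicate 1. The summed fibroblast markers of the siWdr5 libraries were 7311 and 10386 CPM, against 3942 and 3915 in the nt control, with 4 of the 8 markers higher and 0 lower by the test, and the part of this difference was not tested.

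siBrca1 and siBard1 changed no member at day 6 by limma, with 6 and 3 members at an unadjusted p under 0.05. Of all genes, 0 (0.00%) were called in siBrca1, where 1123 had an unadjusted p under 0.05, and 11 (0.0784%) in siBard1, where 1908 had one. In siBrca1 the members with an unadjusted p under 0.05 included *Itga5* (119 and 111 CPM, 0.52 ± 0.13, adjusted p = 0.387), *Lama3* (0.70) and *Itga4* (-0.61). In siBard1 they were *Itga5* (141 and 112 CPM, 0.65 ± 0.13, adjusted p = 0.106), *Itga4* (-0.92) and *Itga6* (0.36). For *Itga5* all 6 knockdown libraries of day 6 lay above the nt control (82.7 and 77.6 CPM), and for *Itga4* all lay below it (15.4 and 18.2 CPM in the nt control, 9.93 and 7.2 in siWdr5, 11.9 and 10.0 in siBrca1 and 10.2 and 7.72 in siBard1).

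Whether a change differed between the days was tested in the 16 libraries together. In siBrca1 the day 6 change differed from that of day 3 for 13 members (2 positive, 11 negative), beside 20.5% of all genes (10.3% in either direction), and for all 13 the day 6 estimate lay nearer to 0 or had the opposite sign. The differences (day 6 minus day 3) were largest for *Itga8* (-1.74 ± 0.26, adjusted p = 0.00207), *Itgb7* (-1.68 ± 0.51, adjusted p = 0.0292) and *Itga5* (-1.57 ± 0.23, adjusted p = 0.00207), followed by *Lama2*, *Itga7*, *Lama5* and *Itga1*. *Lama1* (1.41 ± 0.24, adjusted p = 0.0029) and *Lama3* (1.13) differed in the positive direction. The day 6 libraries of siBrca1 read 15.1 and 18.5 CPM for *Itga8*, 6.12 and 7.49 for *Lama2* and 241 and 221 for *Lama5*, next to 16.9 and 19.3, 6.13 and 8.11 and 239 and 255 in the nt control, so that the groups overlapped for all 3. With 1 library left out the count was 8 without nt control replicate 1 of day 3 or siBrca1 replicate 2 of day 3, and 9 to 18 without each of the others.

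In siWdr5, 3 members differed between the days, beside 4.43% of all genes (3.40% positive, 1.03% negative). *Itgb4* was lower at day 3 and stood at 140.3 and 152 CPM at day 6, above 111 and 111 in the nt control. The day 6 change itself (0.39) was not called. The difference between the days was (1.22 ± 0.20, adjusted p = 0.0117). *Itga4* moved from 0.45 at day 3 to -0.99 at day 6 (-1.43 ± 0.30, adjusted p = 0.0293), and *Lama1* from -0.37 to 0.70 (1.07 ± 0.24, adjusted p = 0.0324). None of the 3 was called without either nt control replicate of day 3, either siWdr5 replicate of day 3 or siWdr5 replicate 2 of day 6 (adjusted p = 0.0517 to 0.131), 1 was called without either nt control replicate of day 6 and 2 without siWdr5 replicate 1 of day 6. siBard1 had 0 members called by limma and 11 at an unadjusted p under 0.05, as 2694 of all 14028 genes had, beside 0.0499% of all genes called (0.0214% positive, 0.0285% negative).

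**Figure D4:**
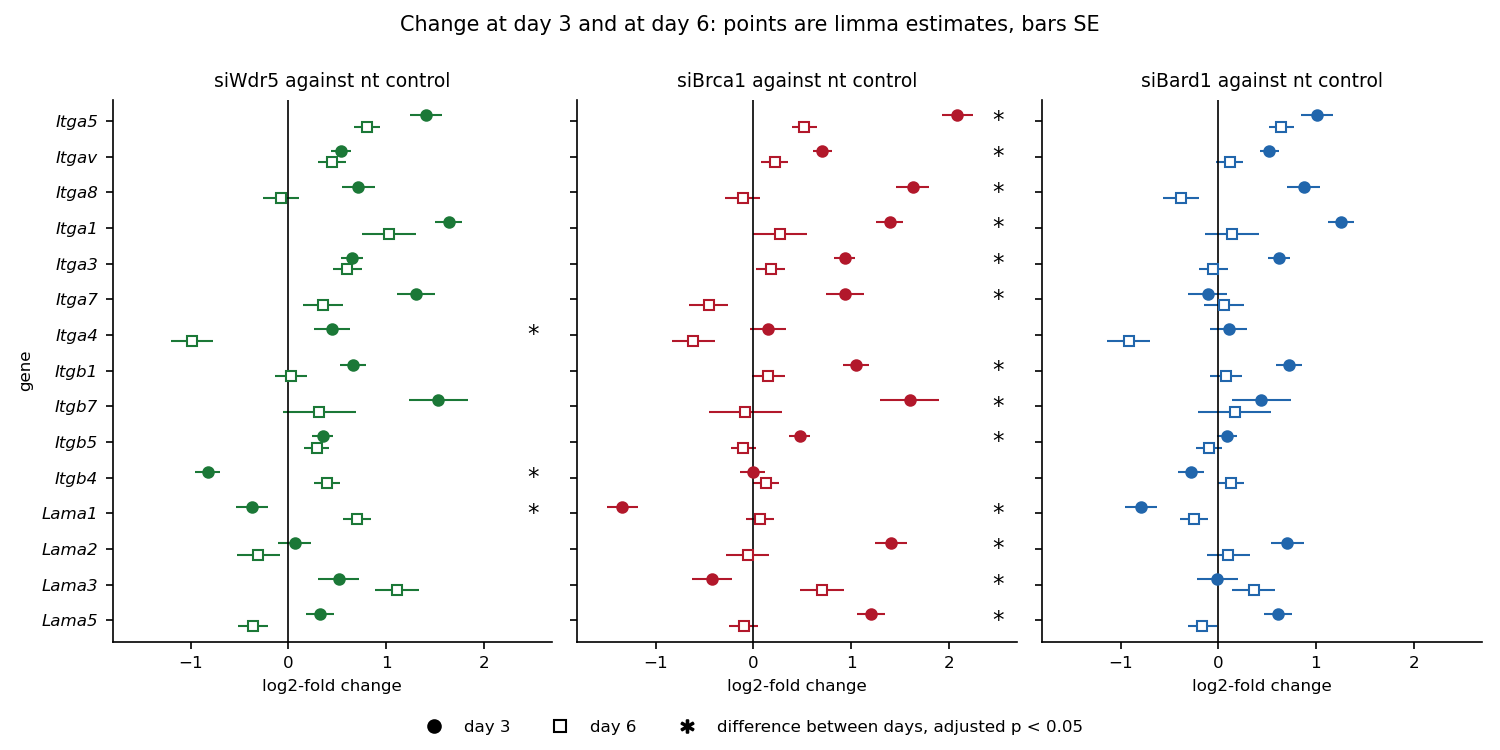
Log2-fold change against the nt control at day 3 (filled circles) and day 6 (open squares) for the 15 members whose change differed between the days in siWdr5 or siBrca1. Bars are SE, and asterisks mark a difference between days at adjusted p < 0.05. In siBrca1 *Itga8* goes from 1.63 at day 3 to -0.11 at day 6 and *Lama1* from -1.34 to 0.07.

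The proteins that integrins and laminins work with were read from 3 lists. Among all genes tested at day 3, 25.4% rose and 21.8% fell in siBrca1, 18.3% and 16.8% in siWdr5, and 8.67% and 5.87% in siBard1. Of 31 tested adaptors that tie integrins to actin, 26 rose and 0 fell in siBrca1 at day 3 (median log2-fold change 0.80), 24 rose and 0 fell in siWdr5 (0.60), and 15 rose and 0 fell in siBard1 (0.36). *Lims2*, a partner of integrin-linked kinase, had the largest log2-fold change of this list in each (2.57 in siBrca1, 1.42 in siWdr5 and 1.59 in siBard1). Vinculin (*Vcl*), which reinforces adhesions under tension, rose by 1.61, 1.01 and 0.78 in the same order. Beside the same shares of all genes, of 22 tested partners of laminin in basement membranes 18 rose and 2 fell in siBrca1 (median 0.78), 16 rose and 1 fell in siWdr5 (0.65), and 11 rose and 1 fell in siBard1 (0.43). *Nid1*, which links laminin to collagen IV, rose by 1.45, 1.04 and 0.68, while *Frem2*, a matrix protein under epithelia, fell in siWdr5 (-1.21) and siBrca1 (-0.93).

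Of 17 tested integrin ligands other than laminins and collagens, 14 rose and 1 fell in siBrca1, beside 25.4% and 21.8% of all genes (median 1.07), 13 rose and 1 fell in siWdr5 (0.97, beside 18.3% and 16.8%), and 12 rose and 0 fell in siBard1, beside 8.67% and 5.87% (0.61). The matricellular *Ctgf* had the largest log2-fold change of this list in each knockdown (3.14 in siBrca1, 2.41 in siWdr5 and 1.82 in siBard1), and *Cdh1*, the E-cadherin ligand of *Itgae*, fell in siBrca1 and siWdr5 (both -1.46). *Cdh1* and *Fn1* are given as ligands of members and were chosen after their values were seen. Fibronectin (*Fn1*), the ligand of *Itga5*, rose by 1.30, 1.13 and 0.55 in siBrca1, siWdr5 and siBard1. At day 6, 20 adaptors, 12 basement membrane partners and 10 ligands were higher in siWdr5 and 2 ligands lower, beside 16.1% higher and 5.70% lower of all genes, and siBrca1 and siBard1 had none called in the 3 lists. In the nt control from day 3 to day 6, 18 adaptors fell and 3 rose, beside 27.1% lower and 19.0% higher of all genes. Of the basement membrane partners 11 fell and 4 rose, and of the ligands 7 fell and 8 rose, beside the same shares.

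The 6 members that did not pass the filter were *Itga2* (3 to 42 reads over the 16 libraries), *Itgal* (0 to 18), *Itgb2* (3 to 28), *Itgb6* (0 to 11), *Lamb3* (1 to 40) and *Lamc3* (1 to 12). Tested without the filter, *Lamb3*, a beta chain of skin, rose in the nt control between the days (2.77) and in siWdr5 and siBrca1 at day 3 (1.70 and 1.57), from 0.268 and 0.193 CPM in the nt control to 1.18 and 2.05 at day 6. *Itgb2*, the common beta of white blood cells, rose in siWdr5 and siBrca1 at day 3 and with time. *Itgb6*, the epithelial partner of alpha v, rose in siBrca1 at day 3 and with time, and *Itga2*, a collagen receptor, with time. At these read numbers the log2-fold changes depend on the prior count in the deposited values.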

How the data were processed

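RNA was sequenced from 16 libraries, 2 per group from independent experiments, made from 200 ng of RNA after depletion of ribosomal RNA and read as pairs. Per the submitters' processing notes and the study's methods, the authors aligned reads to mm10/GRCm38 with STAR 2.5.2b and deposited log2 CPM made with edgeR 3.20.9, read counts scaled to a common library total (CPM) on a log2 scale, with a small prior count. The read counter, its use of strand, the annotation and any filter on low counts are not given in the sources used here. CPM in the report is the antilog of the deposited log2 value, prior included, and the prior pulls the fold changes of weakly read genes towards 0.

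From these values the reads of each gene were recovered as whole numbers. Up to 3000 reads, 100% of values were whole within 0.01 in each of the 16 libraries. The library totals behind the CPM were the read totals times a scaling factor. This factor ran from 0.925 (siWdr5 replicate 2 of day 3) to 1.118 (siBard1 replicate 2 of day 3). Depth was 11169738 to 26832534 reads, and its precision covers counting error only. The filter kept genes whose log2 CPM averaged 0 or more. They were tested with limma 3.58.1 (R 4.3.3, moderated variance with a trend on the level), in a model of the 8 libraries of a day, or all 16 for the time course and the differences between days. Tests were two-sided, and Benjamini-Hochberg adjustment ran over all 14028 genes. The fit of siWdr5 against the nt control at day 3 was checked on simulated reads. These had the same spread in every gene and library and few changed genes. The real data differ in both, so the check does not give the error rate here. Alternatives were other filters, pseudocounts, scalings and sets of libraries, no trend, a replicate block, limma-voom on the recovered reads (at day 3 it gave 5056 genes for siWdr5, 6589 for siBrca1 and 2381 for siBard1, against 4913, 6620 and 2039), a 2-fold rule, and leaving out each library, where the lone sample of an arm was assumed to vary like the other groups.

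The members, roles, marker lists and partner lists were chosen with earlier results of these data known. Values in each library of the groups compared are given for members called with a change above 2-fold in a knockdown, for subunits shared by most dimers or trimers, and for contrasts of the same role. Of the partner lists, up to 3 called genes with the largest change per knockdown at day 3 may be named. Promoter sequences are from RefSeq (GRCm38.p6). Exon lengths and overlaps are from GENCODE vM21. The values of 1 tested member are not reported here, although the counts of members include it.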

Additional observations from a re-analysis of the deposited data

Results flagged for a closer look

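The change against the nt control differed between day 3 and day 6, by a test of the difference itself in limma, for 16 pairs of a member and a knockdown. Values are the day 6 log2-fold change minus that of day 3. In siBrca1 the difference was negative for *Itga8* (-1.74), *Itgb7* (-1.68), *Itga5* (-1.57), *Lama2* (-1.47), *Itga7* (-1.40), *Lama5* (-1.30), *Itga1* (-1.12), *Itgb1* (-0.89), *Itga3* (-0.76), *Itgb5* (-0.58) and *Itgav* (-0.49), and positive for *Lama1* (1.41) and *Lama3* (1.13). In siWdr5 it was positive for *Itgb4* (1.22) and *Lama1* (1.07) and negative for *Itga4* (-1.43). In siWdr5 none of the 3 was called without siWdr5 replicate 2 of day 6, and in siBrca1 *Itga5*, *Itga7*, *Itga8*, *Lama1*, *Lama2* and *Lama5* were called with every library left out in turn. All of these differences share the nt control libraries.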

How the results depend on the processing

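Of the 123 called changes of single members, 47 were called under every alternative, 76 were lost under at least 1, and 0 turned direction. The number of members called moved by more than 1.5 times as follows. With a 2-fold rule added, 6 were called in siWdr5, 10 in siBrca1 and 2 in siBard1 at day 3, 2 in siWdr5 at day 6, 7 in the nt control over time, 2 between siBrca1 and siWdr5, 3 between siBrca1 and siBard1, and 2 between siWdr5 and siBard1. Without the variance trend, 8 were called in siWdr5 at day 6, 0 in its difference between days, 0 between siBrca1 and siBard1 and 2 between siWdr5 and siBard1. With all 16 libraries in the model 1 was called in siBard1 at day 6. With only the compared libraries, 8 were called in the difference between days of siWdr5, 8 in that of siBard1, 6 between siBrca1 and siBard1 and 11 between siWdr5 and siBard1. Centring on the median gene gave 1 in the siBard1 difference between days, beside 35 of all genes in place of 7. Without the filter, 7 were called between siBrca1 and siBard1 and 1 between siWdr5 and siBard1. The cause of these shifts was not tested. Counts over all genes are not given here for the fits without the trend or the filter, or with other sets of libraries. Shifts of the member counts in those fits can therefore not be told apart from shifts over all genes. The same holds for the counts with 1 library left out.

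With 1 library left out, 12 to 14 members were called in siWdr5, 19 to 24 in siBrca1 and 4 to 9 in siBard1 at day 3, 0 to 12 in siWdr5 at day 6, 0 in siBrca1 and siBard1 at day 6, 9 to 13 over time, 0 to 2, 8 to 18 and 0 in the differences between days of siWdr5, siBrca1 and siBard1, 5 to 13 between siBrca1 and siWdr5, 0 to 18 between siBrca1 and siBard1, and 1 to 2 between siWdr5 and siBard1. Deviations of same-numbered replicates had r = -0.09 to 0.07 at day 3 and -0.07 to 0.26 at day 6, where 3 of the 6 pairs of groups were over 0.1. These values do not settle whether libraries with the same number share an experiment. The main model did not take the numbers as pairs, and the replicate block is given as an alternative. The replicate block gave 19 calls in siWdr5 and 23 in siBrca1 at day 3, beside 5064 and 6681 of all genes. It gave 2 in place of 0 in the siBard1 difference between days. Among all genes the block gave 48 calls in place of 11 in siBard1 at day 6, and 93 in place of 7 in its difference between days. With 2 libraries per group, a member not called is not shown to be unchanged.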
